A study of Mus musculus with 6 samples.

Results

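Cycling T and NK cells were 365 of 2993 lymphocytes, and of 6364 cells kept in all, in droplet libraries of an Empty vector and a Bmal1 WT group. Cells kept had at least 200 detected genes and at most 20% mitochondrial UMIs. A lymphocyte was a cell with no UMI (unique molecular identifier, 1 counted transcript) of the macrophage gene Csf1r and with at least 1 UMI of Cd3e or Cd3d, which encode the T cell receptor's CD3 chains, or of Ncr1 or Klrb1c, which encode the NK receptors NKp46 and NK1.1. The cycling cells were chosen by their Mki67 and Top2a counts, which had to sum to at least 2 UMIs. Cells below that count, 2628 in all, are called other lymphocytes here. The rule found 216 cycling cells among 2187 lymphocytes of Empty vector and 149 among 806 of Bmal1 WT. Both of these counts and the levels of Mki67 and Top2a come from the rule itself.

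The labels name YUMM2.1, a mouse melanoma cell line, as the source of both groups, with an empty vector in one and wild-type Bmal1, the clock transcription factor, in the other. They give no strain, age, host or tissue, and the cells described here were picked by lymphocyte genes, while 5 of 216 in Empty vector and 8 of 149 in Bmal1 WT also held at least 3 UMIs of melanoma or fibroblast markers. Each group was a single droplet library that pooled 3 replicates marked with hashtag antibodies (h1, h7 and h8 for Empty vector, h3, h5 and h9 for Bmal1 WT), so the group and its droplet channel cannot be told apart. Nothing in the labels says whether the hashtags mark separate animals, and p-values over hashtags measure only the spread between these samples, which may be technical. The files of a further group, Bmal1 bHLH, were a copy of those of Bmal1 WT in 3 of 3 parts and were not used.

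A dividing lymphocyte copies its DNA in S phase and separates the copies in G2 and mitosis. Entry into S phase is driven by E2F transcription factors, which switch on the genes of the replication machinery and of nucleotide synthesis. Genes of G2 and mitosis peak later and often carry a CHR element, the site at which the DREAM and MuvB complexes hold them silent in resting cells and open them before mitosis. T cells divide after antigen and costimulation, regulatory T cells under interleukin-2, and NK cells under interleukin-15 and interleukin-2. Mki67 encodes the Ki-67 protein that coats mitotic chromosomes, and Top2a the topoisomerase that untangles them. Both are made mainly from late S phase to mitosis, so a rule built on them passes cells of early S phase less readily.

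The promoters of the cell cycle genes are shown first, since the description below follows these genes as S phase and G2/M lists. The 6 windows were chosen after a search of the RefSeq promoter table (GRCm38.p6), which holds 250 bases before to 50 bases after each start. Each is printed 5' to 3' on the gene's strand, from 200 bases before the start to 3 bases after it. Capitals mark a CHR match (TTTGAA) or an E2F match (TTTCCCGC, TTTCGCGC, TTTGCCGC or TTTGGCGC), read on both strands. Mki67 (chr7:135716377-135716579, minus strand), Top2a (chr11:99024187-99024389, minus strand) and Ube2c (chr2:164769729-164769931, plus strand) stand for the late genes.
Mki67: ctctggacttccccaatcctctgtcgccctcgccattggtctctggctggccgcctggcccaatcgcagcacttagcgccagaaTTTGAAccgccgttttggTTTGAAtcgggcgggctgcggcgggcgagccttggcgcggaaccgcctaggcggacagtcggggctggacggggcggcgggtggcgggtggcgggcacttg
Top2a: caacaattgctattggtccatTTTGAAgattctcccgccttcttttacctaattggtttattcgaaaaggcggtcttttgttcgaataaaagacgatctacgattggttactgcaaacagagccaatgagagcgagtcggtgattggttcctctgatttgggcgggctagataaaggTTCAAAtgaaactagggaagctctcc
Ube2c: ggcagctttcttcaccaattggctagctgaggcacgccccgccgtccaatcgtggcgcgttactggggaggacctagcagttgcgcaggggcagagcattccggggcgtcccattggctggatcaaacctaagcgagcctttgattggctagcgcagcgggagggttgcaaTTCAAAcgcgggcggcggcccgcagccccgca

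Pclaf, a partner of the replication clamp PCNA, lies at chr9:65890123-65890325 (plus strand), Mcm6, a subunit of the replicative helicase, at chr1:128359703-128359905 (minus strand), and Cdc6, which loads that helicase, at chr11:98907951-98908153 (plus strand). They stand for the S phase genes. In Mcm6 a pair of E2F matches on opposite strands share letters and print as a single run of capitals.
Pclaf: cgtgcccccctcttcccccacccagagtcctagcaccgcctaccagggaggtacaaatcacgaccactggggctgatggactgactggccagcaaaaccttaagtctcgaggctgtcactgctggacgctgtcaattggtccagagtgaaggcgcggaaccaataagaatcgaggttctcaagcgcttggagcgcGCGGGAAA
Mcm6: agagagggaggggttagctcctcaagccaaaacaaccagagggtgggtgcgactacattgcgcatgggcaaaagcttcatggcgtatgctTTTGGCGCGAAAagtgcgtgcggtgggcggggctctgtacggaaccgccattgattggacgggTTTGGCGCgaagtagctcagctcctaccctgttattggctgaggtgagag
Cdc6: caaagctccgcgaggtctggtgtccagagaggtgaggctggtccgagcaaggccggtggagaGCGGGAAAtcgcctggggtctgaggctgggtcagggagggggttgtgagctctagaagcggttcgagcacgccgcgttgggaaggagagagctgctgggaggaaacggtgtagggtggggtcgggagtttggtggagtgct

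Over the whole table of 27025 promoters, 18.1% held a CHR match in their 300 bases. Of the 40 genes of the G2/M list 34 had a promoter in the table, and 26 of these (76.5%) held one, against 2 of 25 (8.0%) for the S phase list. The E2F match was found in 2.32% of all promoters, in 10 of 25 of the S phase list and in 1 of 34 (2.94%) of the G2/M list. The CCAAT letters stood in 37.9% of all promoters, in 28 of 34 (82.4%) of the G2/M list and in 14 of 25 (56.0%) of the S phase list. A match is a description of the letters and not of a bound site. Windows of Nusap1 and Rrm2 held neither a CHR nor an E2F match.

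Cycling cells had more UMIs than other lymphocytes, which the rule fixes in part, since a deeper cell reaches a raw count of 2 more readily. Their median was 11729.5 UMIs a cell in Empty vector and 14302 in Bmal1 WT, against 4182 and 5834 in other lymphocytes, and their median number of detected genes was 3514 and 3806 against 1820 and 2165. The median share of mitochondrial UMIs was near the same, at 4.88% and 4.33% against 5.16% and 4.63%. Of the cycling cells, 190 of Empty vector and 137 of Bmal1 WT carried exactly 1 hashtag, and 17 and 5 carried several. A share of cycling cells with several hashtags of 7.87% in Empty vector stood beside 7.56% of its other lymphocytes. The libraries shared 5 barcodes, and 0 of them was a cycling cell.

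The rule's threshold sits on a steep part of the count. In Empty vector 1731 lymphocytes had no Mki67 or Top2a UMI, 240 had 1, 79 had 2, 22 had 3 and 115 had 4 or more. In Bmal1 WT the counts were 536, 121, 37, 19 and 93. Genes outside the rule were counted in the same cells after each cell had been thinned to 2000 UMIs, with shallower cells left out. The mean number of S phase and G2/M list UMIs was 3.54, 4.16, 6.83, 8.05 and 28.2 in these 5 bins of Empty vector and 3.23, 3.94, 6.41, 6.72 and 31.4 in Bmal1 WT. Cells with 2 or 3 UMIs thus lay just inside the rule at levels nearer to those just outside it. Among the cycling cells, most of the cell cycle UMIs came from cells with 4 or more.

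**Figure D1:**
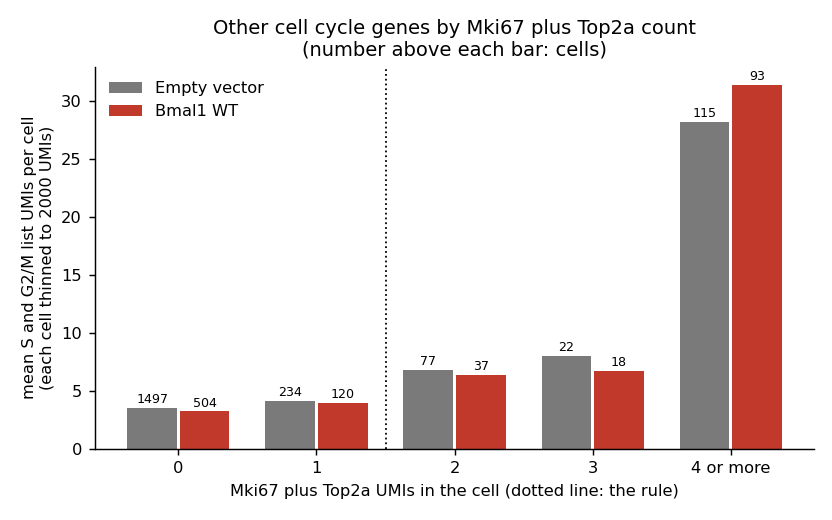
Mean UMIs of the S phase and G2/M lists per cell (y axis, each cell thinned to 2000 UMIs) by the cell's Mki67 plus Top2a count (x axis) in Empty vector (grey) and Bmal1 WT (red), with the number of cells of at least 2000 UMIs above each bar. The means lie between 3.23 and 4.16 left of the dotted line and reach 28.2 and 31.4 in cells with 4 or more UMIs.

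Free RNA in droplets can give UMIs to cells that do not make them. Mature dendritic cells, taken as cells with Ccr7 and Fscn1 and without the T and NK genes of the rule, passed the same count of 2 in 6 of 132 cases in Empty vector (4.55%, exact 95% interval 1.69 to 9.63%) and in 6 of 90 in Bmal1 WT (6.67%, 2.49 to 13.9%), at median depths of 8588.5 and 9956 UMIs. The cells that passed held a mean of 1.17 and 0.667 S phase and G2/M UMIs after thinning. After thinning to 2000 UMIs, 0 of 117 and 0 of 71 of these dendritic cells reached the count. The share of Trdc cells, given below, did not exceed these shares, although the 3 cycling Trdc cells held a mean of 12 S phase and G2/M UMIs after thinning. NK cells, at 6.47% in Empty vector and 13.5% in Bmal1 WT, lay inside the intervals of the dendritic cells. The cycling NK cells held a mean of 16.4 and 18.1 such UMIs after thinning. T cells with none of the class genes used below also lay inside in Empty vector (4.61%, mean of 19.0). Intervals cover counting error only.

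Markers of other cell types were looked for in the cycling cells. Cd79a (B cells), C1qa and Fcgr1 (macrophages), S100a8 and S100a9 (neutrophils) and Mlana (melanocytes) were at 0 in all 365 cells. An Ighm UMI was found in 51.4% of cycling cells of Empty vector and in 57.0% of Bmal1 WT, against 34.9% and 42.2% of the shallower other lymphocytes. Pecam1, of endothelium and some leukocytes, was found in 37.0 and 39.6% (27.7 and 30.7% of other lymphocytes), and Itgax, of dendritic cells and some NK cells, in 32.9 and 32.9% (31.5 and 36.2%). The class II gene H2-Ab1 was found in 18.1 and 22.1% (7.76 and 8.68%), the macrophage gene Cd68 in 6.02 and 8.05% (2.59 and 2.44%), the B cell gene Cd79b in 2.78 and 8.72% (1.47 and 1.98%) and the melanoma marker Erbb3 in 5.09 and 6.04% (1.52 and 2.89%). The part of such UMIs in the results was not tested, other than for the cells described next. At least 3 UMIs of melanoma or fibroblast markers were held by 5 of 216 cycling cells in Empty vector (2.31%, against 1.01% of other lymphocytes) and by 8 of 149 in Bmal1 WT (5.37%, against 1.98%), and 2 and 6 of these cells lacked the leukocyte gene Ptprc. One of them, in h1, held 283330 UMIs, of which 813 were of these markers, and made up 21.2% of all UMIs of cycling cells in h1. Another, in h5, held 118443 UMIs and 12.1% of those of h5, while the highest of the remaining cycling cells were at 71513 and 67076 UMIs. Sums of cycling cells whose overlap between groups changed without the cells with at least 3 such UMIs are given both ways below, a setting chosen after the data had been seen.

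The first question was which lymphocytes cycled. Cells were put into classes by their raw UMIs of Ncr1 or Klrb1c, Cd3e or Cd3d, Cd8a or Cd8b1, Cd4, Foxp3 and Trdc. NK cells, which kill without antigen receptors, made up 33.4% of cycling cells but 50.2% of other lymphocytes. CD8 T cells, the cytotoxic T cells, made up 29.6% against 18.5%, and Foxp3 cells, which are regulatory T cells, 9.04% against 2.55%. CD4 T cells without Foxp3 were 10.1% against 8.68%, and cells with both CD3 and NK genes 10.4% against 9.82%. In the cycling cells some genes not used to assign the classes were also divided between them, and others were shared. Trac was found in 99.1% of cycling CD8 cells and in 11.5% of cycling NK cells, and Eomes in 22.2% and 85.2%. The T cell marker Trbc1 went the other way (45.4% and 90.2%), and Lck was common in both (95.4% and 83.6%). Il2ra, the interleukin-2 receptor alpha chain of regulatory T cells, was found in 93.9% of cycling Foxp3 cells. It was also in 34.3% of cycling CD8 cells and 43.2% of cycling CD4 cells without Foxp3. Ctla4 was in 97.0%, 86.1% and 94.6% of these classes.

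Of the classes with at least 100 cells, Foxp3 cells had the highest share. Of 100 such cells 33 were cycling (33.0%, exact 95% interval 23.9 to 43.1%), compared with 108 of 595 CD8 cells (18.2%, 15.1 to 21.5%), 37 of 265 CD4 cells without Foxp3 (14.0%, 10.0 to 18.7%) and 38 of 296 cells with both CD3 and NK genes (12.8%, 9.25 to 17.2%). NK cells stood lower, with 122 of 1442 (8.46%, 7.08 to 10.0%). T cells with none of the class genes had 14 of 196 (7.14%, 3.96 to 11.7%) and Trdc cells, the gamma-delta T cells, 3 of 70 (4.29%). The small class with both CD4 and CD8 UMIs had 10 of 29 (34.5%, 17.9 to 54.3%). Neighbours from CD8 down to the cells with CD3 and NK genes had overlapping intervals. The intervals pool cells of all hashtags and leave out the spread between them. The classes also rest on raw UMIs, so a deeper cell shows a class gene more readily. Cycling Foxp3 cells had a median of 14425 UMIs in Empty vector and 17686 in Bmal1 WT, against 4548.5 and 6194 in other Foxp3 cells.

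The order held hashtag by hashtag for 3 classes. In Foxp3 cells 6 of 12, 4 of 14 and 6 of 27 were cycling in h1, h7 and h8, and 7 of 21, 5 of 7 and 4 of 9 in h3, h5 and h9, so the share ran from 22.2 to 71.4%. CD8 cells gave 37 of 245, 5 of 43 and 21 of 104 in Empty vector and 18 of 72, 14 of 55 and 5 of 34 in Bmal1 WT. NK cells gave 19 of 322, 19 of 222 and 19 of 332, and 37 of 211, 8 of 95 and 6 of 63. The mean over the 6 hashtags was 41.7% ± 17.8 (SD, n = 6) for Foxp3 cells, 29.1 points above all remaining lymphocytes of the same hashtags and higher in 6 of 6. It was 18.7% ± 5.77 for CD8 cells, 6.42 points above the rest and higher in 6 of 6. It was 9.28% ± 4.33 for NK cells, 8.30 points below the rest and lower in 6 of 6.

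For each of these 3 classes the two-sided exact sign-flip permutation test gave p = 0.03125, the smallest that 6 hashtags allow, and a Benjamini-Hochberg adjusted p of 0.0833 over 8 classes. The differences therefore did not pass 0.05 after adjustment, for which this number of hashtags leaves little room. After thinning every cell to 2000 UMIs the differences were 12.1 points for Foxp3, 5.38 for CD8 and -5.54 for NK cells, with an adjusted p of 0.0547 each in the exact test, as for cells with both CD3 and NK genes (-4.59 points). At this depth 1 of 6, 1 of 11 and 1 of 20 Foxp3 cells were cycling in h1, h7 and h8, and 3 of 14, 3 of 7 and 1 of 6 in h3, h5 and h9. Their share equalled that of CD8 cells in h7 (9.09%) and lay below it in h8 (5.0 against 8.05%). Over all alternatives the adjusted p of the 3 classes was never below 0.0547.

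Cycling cells of the classes also differed in how many cell cycle UMIs they held. At 2000 UMIs a cell, cycling CD8 cells had a median of 19 S phase and G2/M UMIs in Empty vector and 29 in Bmal1 WT, cycling Foxp3 cells 19 and 26, and cycling NK cells 10 and 15. Other lymphocytes of these classes had a median of 3 in both groups. The differences between classes of cycling cells are a description, since the rule acted on the same cells.

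Next, the share of cycling cells was compared between Bmal1 WT and Empty vector. In Empty vector 72 of 792 lymphocytes were cycling in h1 (9.09%), 44 of 445 in h7 (9.89%) and 74 of 672 in h8 (11.01%). In Bmal1 WT the counts were 80 of 397 in h3 (20.2%), 38 of 210 in h5 (18.1%) and 19 of 137 in h9 (13.9%). Each Bmal1 WT hashtag was above each Empty vector hashtag. The means were 10.0% ± 0.965 and 17.4% ± 3.20 (SD, n = 3 each), a difference of 7.37 percentage points with p = 0.10 in the two-sided exact permutation test, the smallest p that 3 against 3 allows. Over the whole libraries the shares were 9.88% (216 of 2187, exact 95% interval 8.66 to 11.2%) and 18.5% (149 of 806, 15.9 to 21.3%). These intervals cover the counting error of pooled cells, leave out the spread between hashtags and are no test between the groups.

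Other lymphocytes of Bmal1 WT were deeper, with a median of 5834 UMIs against 4182, and a deeper cell passes a count of 2 more readily. Thinned to 2000 UMIs, with shallower cells left out, the shares were 3.30, 4.50 and 3.96% in h1, h7 and h8, from 637, 378 and 555 lymphocytes, and 9.61, 11.6 and 8.77% in h3, h5 and h9, from 333, 181 and 114. The groups again did not overlap, and the difference was 6.08 points. It lay between 5.90 and 10.4 points over 17 alternatives, including those that left out the cells of other lineages, the deepest cells or 1 hashtag.

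**Figure D2:**
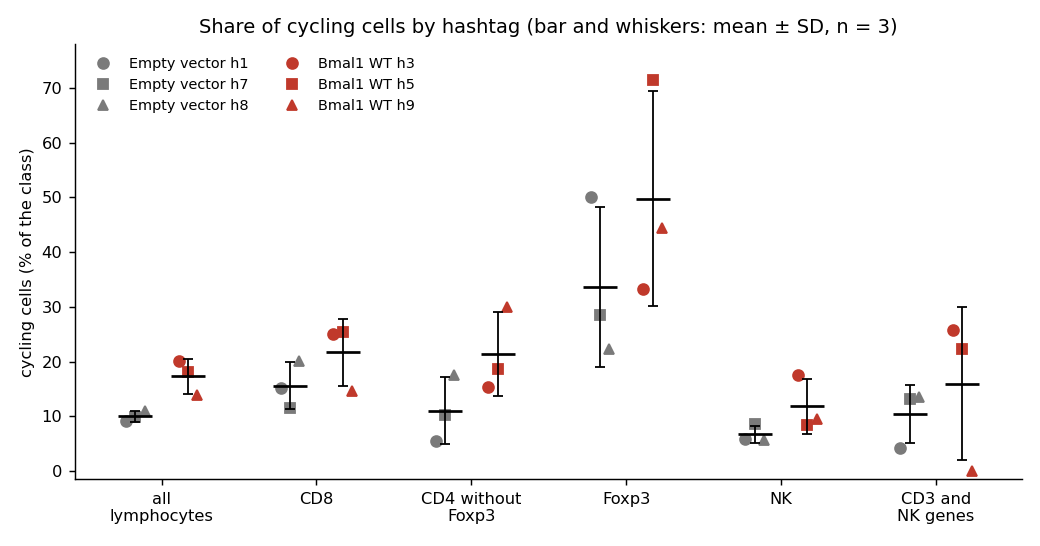
Share of cycling cells (y axis, % of the class) in all lymphocytes and in 5 classes, with 1 point a hashtag, Empty vector in grey and Bmal1 WT in red, and bars and whiskers for the mean ± SD (n = 3). Over all lymphocytes the groups do not overlap (9.09 to 11.01% against 13.9 to 20.2%), within each class shown they do, and Foxp3 cells lie highest at 22.2 to 71.4%.

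Within classes the mean share was higher in Bmal1 WT for most, but none was separated by hashtag. It was 15.6% ± 4.31 against 21.7% ± 6.08 in CD8 cells, 11.1% ± 6.07 against 21.4% ± 7.65 in CD4 cells without Foxp3, 33.6% ± 14.6 against 49.7% ± 19.6 in Foxp3 cells and 6.73% ± 1.59 against 11.8% ± 4.98 in NK cells (SD, n = 3 each). The groups overlapped in each class, with adjusted p of at least 0.533 in the exact permutation test over 8 classes. The makeup of the cycling cells did not separate either. CD8 cells were 30.4% ± 20.1 of cycling cells in Empty vector and 28.6% ± 7.43 in Bmal1 WT, NK cells 31.7% ± 9.91 and 33.0% ± 12.7, and Foxp3 cells 8.51% ± 0.515 and 14.3% ± 6.23, all with an adjusted p of 1.0 in that exact test. With 3 hashtags a group the smallest unadjusted p is 0.10, so these comparisons could not have passed.

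The genes of the cycling cells were then set against those of other lymphocytes of the same hashtag. UMIs were summed per hashtag and scaled to CPM, the UMIs of a gene per 1e6 UMIs, and no test was made, because the rule chose the cells by their cell cycle UMIs. As cycling cells held more UMIs, a gene at an equal share of UMIs still has more UMIs a cell, and a lower CPM can go with an equal number of UMIs. Of 9659 genes measured, 14.8% were higher in cycling cells in 6 of 6 hashtags and 16.0% lower. Mki67, at 489 ± 236 against 7.02 ± 1.97 CPM (SD, n = 6 hashtags here and below), and Top2a, at 728 ± 225 against 16.9 ± 1.71, are the genes of the rule.

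Markers outside the rule followed it in every hashtag. Pclaf stood at 370, 546 and 524 CPM in cycling cells of h1, h7 and h8 and at 726, 560 and 612 in h3, h5 and h9, against 4.69 to 16.1 in other lymphocytes. Its means were 556 ± 116 and 8.64 ± 4.09, or 9.63 and 0.0585 UMIs a cell. Rrm2, the small subunit of ribonucleotide reductase, was at 182 ± 45.1 against 3.57 ± 2.31 CPM. Nusap1, which bundles spindle microtubules, was at 95.6, 156 and 154 CPM in h1, h7 and h8 and at 212, 163 and 337 in h3, h5 and h9, against 0.269 to 2.93. None of these 3 genes overlapped between cycling and other cells.

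All 29 S phase genes and all 40 G2/M genes were higher in 6 of 6 hashtags, beside 14.8% of all genes. The S phase list summed to 4141 ± 692 against 805 ± 124 CPM (5.15-fold) and to 72.5 against 4.93 UMIs a cell. The G2/M list summed to 7502 ± 2542 against 893 ± 83.0 CPM (8.40-fold) and to 122 against 5.46 UMIs a cell. Folds ranged widely inside the lists. The helicase subunit Mcm6 was at 275 ± 37.3 against 109 ± 25.5 CPM (2.52-fold), while Hmmr, a spindle protein, was at 87.5 ± 30.9 against 0.22 ± 0.373. Cyclin A2 (Ccna2) was at 177 ± 88.5 against 0.714 ± 1.15, and the ubiquitin-conjugating enzyme Ube2c, which works with the anaphase-promoting complex, at 271 ± 145 against 7.01 ± 1.99. By classes, the S phase and G2/M sums were 5.45-fold and 7.92-fold in T cell classes and 4.25-fold and 7.70-fold in NK cells.

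Of the S phase and G2/M UMIs of cycling cells, the G2/M list held 58.3, 59.6 and 64.2% in h1, h7 and h8 and 63.1, 59.99 and 75.1% in h3, h5 and h9. The highest value, in h9, comes from 19 cells.

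Inhibitors of division did not move together. Btg1, an antiproliferative gene of resting lymphocytes, was lower in cycling cells in 6 of 6 hashtags, at 939 ± 190 against 2312 ± 451 CPM, although its UMIs a cell were 16.6 against 14.6. Its relative Btg2 was at 307 ± 99.0 against 681 ± 143, and Cdkn1b, which encodes the CDK inhibitor p27, at 130 ± 18.8 against 213 ± 26.7. Cdkn2c, which encodes p18INK4c, went the other way. It was at 54.5, 68.8 and 65.4 CPM in cycling cells of h1, h7 and h8 and at 76.4, 45.8 and 113 in h3, h5 and h9, above the 19.0 to 27.7 of other lymphocytes in each case. The same direction was seen in CD8 cells (78.3 ± 49.4 against 11.3 ± 9.06) and in NK cells (68.2 ± 27.0 against 26.6 ± 4.61). Of 10 inhibitors 3 were higher and 3 lower in 6 of 6 hashtags, beside 14.8% and 16.0% of all genes.

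Genes of naive and memory T cells were lower in cycling cells. Of 10 measured in T cell classes, 10 were lower in 6 of 6 hashtags, beside 14.3% of all 7951 genes measured there, and their sum was 902 ± 292 against 3110 ± 833 CPM. In CD8 cells alone 9 of 10 were lower in 6 of 6, beside 10.0% of all 5759 genes. Tcf7, the transcription factor of self-renewing T cells, was at 46.5, 29.2 and 43.2 CPM in cycling CD8 cells of h1, h7 and h8 and at 79.0, 99.6 and 0 in h3, h5 and h9, against 175 to 464 in other CD8 cells. Klf2, which keeps T cells circulating, was at 109 ± 95.7 against 470 ± 147 CPM. Neither gene overlapped between cycling and other CD8 cells. Per cell the gap was smaller, at 1.0 against 1.43 UMIs for Tcf7 and 1.46 against 2.45 for Klf2. In NK cells 5 of 10 were lower in 6 of 6, among them Klf2 (152 ± 46.0 against 308 ± 53.2 CPM) and Bcl2, a survival factor (443 ± 135 against 819 ± 118), beside 7.42% of all genes there.

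Growth genes were higher in cycling T cells, while in NK cells their values turned on h5. Of 13 glycolysis genes, 8 were higher in 6 of 6 hashtags in T cell classes, where 15.7% of all genes were, and 0 of 13 in NK cells, where 4.92% were. The list summed to 7462 ± 1281 against 3971 ± 976 CPM in T cell classes and to 3836 ± 577 against 3757 ± 2083 in NK cells, where it was higher in 5 of 6 hashtags. In h5 the other NK cells stood at 7928 CPM, against 2358 to 3516 in the remaining hashtags, and held 648 CPM of ILC2 markers, 582 of it from Areg with Il1rl1 and Il13 at 0, against 98.3 to 124. Over all other lymphocytes of h5 glycolysis was at 6300 CPM from 172 cells. It was at 3000 CPM from the 169 cells with fewer than 3 melanoma or fibroblast UMIs, against 2654 to 3654 in the remaining hashtags. NK cells alone were not tested in this way. Without h5, a setting added after the data had been seen, the NK sums were 3706 ± 538 against 2923 ± 453 CPM, and 4 of 13 genes were higher in 5 of 5 hashtags, beside 7.16% of all genes. In T cell classes the cycling cells of h5 stood at 9616 CPM and included the cell of 118443 UMIs. Without h5 the T cell sums were 7031 ± 811 against 3868 ± 1054 CPM. In CD8 cells Pkm, the pyruvate kinase of growing cells, was at 616 ± 160 against 339 ± 49.98 CPM without overlap, and in NK cells at 456 ± 90.3 against 447 ± 314, or 424 ± 50.2 against 320 ± 62.6 without h5. Ribosome biogenesis genes gave 8 of 12 in T cell classes (3738 ± 987 against 1959 ± 120 CPM in sum) and 3 of 12 in NK cells (2646 ± 614 against 2176 ± 304). The 3 were Ncl, Npm1 and Nop58, which encode nucleolar proteins. Myc itself was not higher over all lymphocytes, at 85.2 ± 35.7 against 101 ± 30.1 CPM. The difference between T and NK cells in these lists was not tested.

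The summed share of RNA of effector genes was lower, with few single genes lower in every hashtag. Of 10 cytokine and chemokine genes 2 were lower in 6 of 6 hashtags over all lymphocytes, beside 16.0% of all genes, and 1 of 9 in T cell classes, beside 14.3%. The 10 measured cytokine and chemokine genes summed to 2075 ± 613 against 5212 ± 838 CPM over all lymphocytes, while in NK cells a sum of 2852 ± 1010 against 5283 ± 298 CPM was 37.2 against 32.4 UMIs a cell. Ccl5, a chemokine of effector cells, was at 1860 ± 772 against 3564 ± 523 CPM in NK cells and at 1794 ± 1347 against 5787 ± 2691 in CD8 cells, lower in 6 of 6 hashtags in both. In NK cells 5 of 9 cytotoxic effectors were lower in 6 of 6 hashtags, beside 7.42% of all genes. Perforin (Prf1) was at 417 ± 110 against 760 ± 82.9 CPM there and granzyme B (Gzmb) at 435 ± 148 against 1117 ± 325, with equal Gzmb UMIs a cell of 7.35. Granzyme C (Gzmc) stood apart, at 1273 ± 960 against 268 ± 256 CPM, higher in 5 of 6 hashtags and 66.1 against 96.9 in h7. In CD8 cells 2 of 10 cytotoxic genes were lower in 6 of 6, beside 10.0% of all genes, and 0 higher, and Gzmb overlapped (471 ± 340 against 391 ± 279).

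Receptors and interferon genes are given by class, and differences between classes were not tested. The interleukin-2 receptor alpha chain Il2ra was higher in cycling CD8 cells in 6 of 6 hashtags, as were 9.38% of all genes there, at 114, 933 and 121 CPM in h1, h7 and h8 and at 45.2, 171 and 68.8 in h3, h5 and h9, against 15.9 to 84.6 with overlap. The highest of these, in h7, comes from 5 cells. Pdcd1, the PD-1 receptor, was at 352 ± 142 against 326 ± 105 CPM and the exhaustion factor Tox at 281 ± 134 against 264 ± 102 in CD8 cells, with overlap, and 0 of 9 checkpoint genes were higher in 6 of 6. Of 12 interferon response genes 7 were lower in cycling CD8 cells in 6 of 6 hashtags, beside 10.0% of all genes, such as Rsad2 (2.24 ± 3.94 against 38.9 ± 14.7 CPM) and Irf7 (13.4 ± 8.34 against 44.2 ± 11.5). In NK cells 1 of 9 was, beside 7.42% of all genes. Interferon-gamma receptor Ifngr1 was at 661 ± 104 against 1059 ± 152 CPM in NK cells without overlap.

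**Figure D3:**
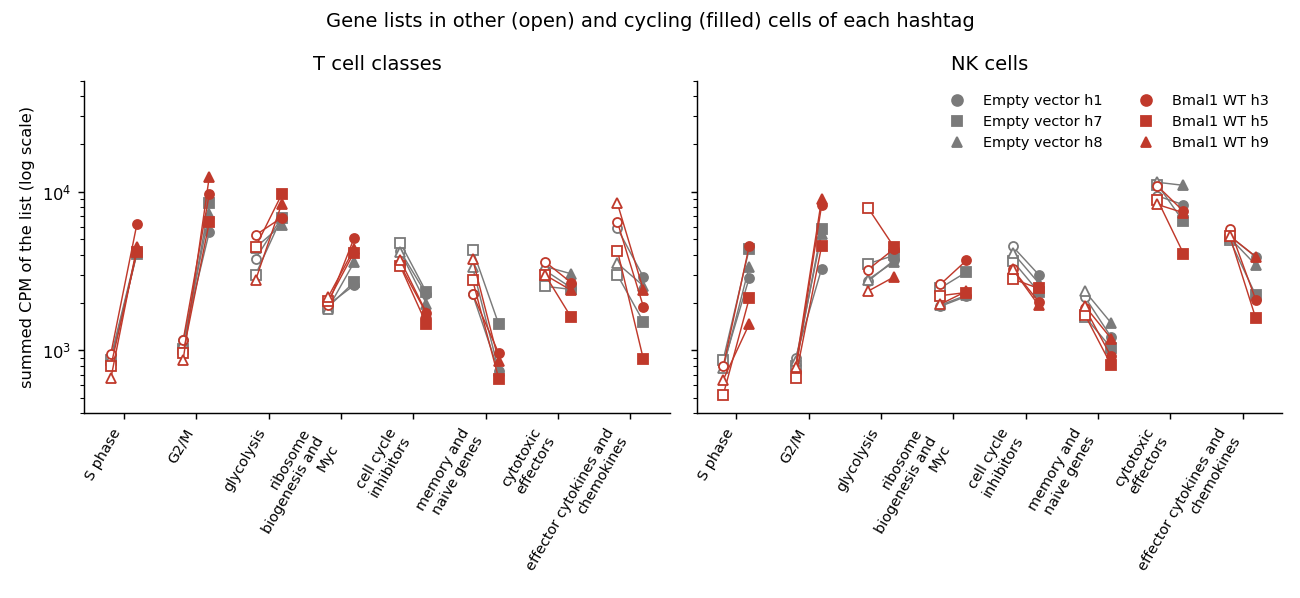
Summed CPM of 8 gene lists (y axis, log scale) in other lymphocytes (open) and cycling cells (filled) of each hashtag, joined by a line, in T cell classes and in NK cells, Empty vector in grey and Bmal1 WT in red. The S phase and G2/M sums are higher in cycling cells of each hashtag, memory and naive genes average 3110 CPM in other and 902 in cycling T cells, and glycolysis is higher in cycling T cells of each hashtag and in cycling NK cells of 5 of 6, with the other NK cells of h5 at 7928 CPM.

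The last question was whether the genes of cycling cells differed between the Bmal1 WT and Empty vector libraries. UMIs were summed over the cycling cells of each hashtag, from 326559 in h9 to 1339515 in h1, and edgeR's quasi-likelihood test was run on the 6880 genes with at least 100 UMIs. At a Benjamini-Hochberg adjusted p of 0.05, 0 genes were called (0.0%), while 400 had an unadjusted p under 0.05 (5.81%), 165 of them higher in Bmal1 WT (2.4%) and 235 lower (3.42%). DESeq2 called 1 gene, AY036118 (0.0145%). Groups did not overlap for 383 higher genes (5.57%) and for 504 lower genes (7.33%). For other lymphocytes 8757 genes were tested and edgeR called 0 (0.0%). Of these, 1110 (12.7%) had p under 0.05 before adjustment, and DESeq2 called 126 (1.44%).

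By the naming rule the 10 genes with the smallest unadjusted p are given, none of them called, all at an adjusted p of 0.816 in edgeR. AY036118, a long noncoding RNA (GRCm38 chr17:39847113-39848035, minus strand), stood at 622, 574 and 766 CPM in h1, h7 and h8 and at 302, 256 and 178 in h3, h5 and h9. Its log2 fold change was -1.40 ± 0.22 (SE), with an unadjusted p of 0.000298 in edgeR and an adjusted p of 7.05e-05 in DESeq2. It was also lower in other lymphocytes, at 527 against 309 CPM (-0.77 ± 0.17). AY036118 lies inside an annotated ribosomal RNA gene on the same strand and a lincRNA on the opposite strand, so its counts are uncertain where the counting could split reads between them. No genes of the remaining 9 were called by either tool.

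Of these 9, Dnajc21, Srm, Tcp1, Mrpl57 and 1500009L16Rik were higher in Bmal1 WT. Srm, the spermidine synthase, was at 16.4, 17.2 and 35.3 CPM in h1, h7 and h8 and at 76.4, 79.4 and 42.9 in h3, h5 and h9 (log2 fold change 1.55 ± 0.37). Tcp1, a subunit of the chaperonin that folds actin and tubulin, was at 191, 194 and 222 and at 294, 308 and 309 CPM (0.59 ± 0.14). Dnajc21, a chaperone of ribosome assembly, had means of 45.7 ± 5.09 and 85.4 ± 11.6 CPM (0.91 ± 0.20). The mitochondrial ribosome protein gene Mrpl57 had means of 96.6 ± 6.62 and 149 ± 16.4 (0.62 ± 0.16), and 1500009L16Rik 13.0 ± 3.71 and 52.9 ± 28.5 (1.92 ± 0.43).

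Lower in Bmal1 WT were Hilpda, Prkca, Arhgap39 and Ppm1k. Hilpda, a hypoxia-induced lipid droplet gene, was at 140, 125 and 148 CPM in h1, h7 and h8 and at 56.7, 74.3 and 98.0 in h3, h5 and h9 (log2 fold change -0.90 ± 0.22), while other lymphocytes had 102 and 104 CPM. Prkca, protein kinase C alpha, was at 88.6 ± 3.57 and 50.2 ± 7.07 CPM (-0.80 ± 0.18), and at 95.9 and 66.2 in other lymphocytes. Arhgap39 was at 26.4 ± 4.37 and 9.23 ± 0.93 CPM (-1.52 ± 0.31) and Ppm1k, a mitochondrial phosphatase, at 33.4 ± 4.76 and 13.4 ± 3.80 (-1.24 ± 0.30). Groups did not overlap for any of the 10 genes, beside 5.57% of all tested genes that were higher and 7.33% that were lower without overlap. Their directions held in every alternative in which they were tested. Both follow in large part from the choice of genes by their p in this same contrast and are no support for them. Tests of whether the contrast of Bmal1 WT with Empty vector differed between cycling and other lymphocytes gave an adjusted p of 0.972 in edgeR for each of the 10, and 0 of 9659 genes were called (443, or 4.59%, at an unadjusted p under 0.05, and 0 in DESeq2).

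**Figure D4:**
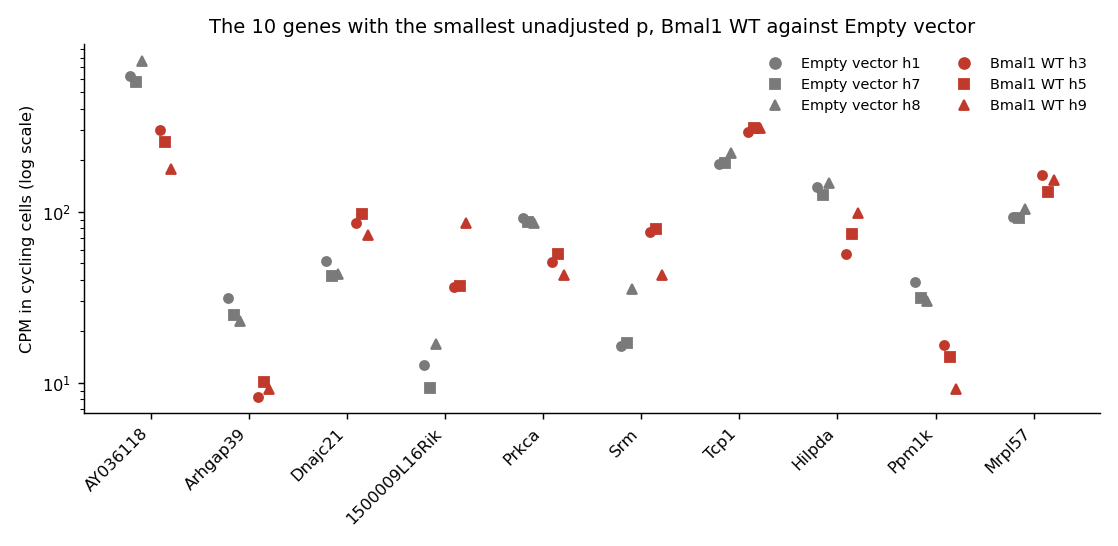
CPM in cycling cells (y axis, log scale) of the 10 genes with the smallest unadjusted p, 1 point a hashtag, Empty vector in grey and Bmal1 WT in red. The groups do not overlap for any of the 10, which were chosen by their p in this contrast. AY036118 lies at 574 to 766 CPM in Empty vector and 178 to 302 in Bmal1 WT, but none passed an adjusted p of 0.05 in edgeR.

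Described by list, cell cycle genes leaned toward Bmal1 WT within cycling cells. All 40 G2/M genes had a log2 fold change above 0, with a median of 0.59, beside 44.4% of all tested genes and a median over them of -0.05. Of the 40, 7 were higher at an unadjusted p under 0.05 (17.5%, beside 2.4% of all genes), 5 were higher without overlap (12.5%, beside 5.57%) and 0 were called. The cells were chosen by Mki67 and Top2a, which are made in the same phases, so this list is tied to the rule. Genes of a list can also move together, so counts of members here and below are not independent. Their sum was 4275, 6796 and 7217 CPM in h1, h7 and h8 and 8712, 6238 and 11774 in h3, h5 and h9, so the groups overlapped through h5. Means were 6096 ± 1591 and 8908 ± 2773. Without the cells that held melanoma or fibroblast UMIs the sum was 5660, 6796 and 7063 and 8712, 7663 and 11774 CPM, with no overlap. The S phase list leaned less, with 22 of 29 above 0, a median of 0.18, and sums of 3896 ± 785 and 4386 ± 632 CPM.

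Members of the G2/M list with the smallest p, chosen after their values had been seen, were Tubb4b, a tubulin of the spindle (149 and 282 CPM), and Ube2c (178 and 363 CPM). In Ube2c the hashtags were at 123, 153 and 259 against 287, 269 and 533 CPM. Cells with 4 or more Mki67 and Top2a UMIs, which carry most of the G2/M UMIs, were 115 of 216 cycling cells in Empty vector and 93 of 149 in Bmal1 WT. Among these cells alone, a threshold chosen after the data had been seen, the list summed to 7673 ± 1858 and 11278 ± 2835 CPM with overlap (1.47-fold, against 1.46-fold over all cycling cells). In other lymphocytes 9 G2/M genes had enough UMIs to be tested, of which 2 were above 0 with a median of -0.09, beside 34.8% of all genes tested there.

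Ribosome biogenesis genes leaned the same way. Of 11 tested 10 were above 0, with a median of 0.58. Of the 11, 5 were higher at an unadjusted p under 0.05, beside 2.4% of all genes, and 6 without overlap, beside 5.57%, but 0 were called. The list summed to 2273, 2994 and 3254 CPM in h1, h7 and h8 and to 4360, 4040 and 3959 in h3, h5 and h9 (2841 ± 508 and 4120 ± 212), without overlap. In NK cells alone the sums overlapped, at 2188, 3113 and 2222 against 3687, 2314 and 2355 CPM, and so did those of CD8 cells alone. Npm1, a nucleolar chaperone, was at 1110, 1470 and 1475 against 1958, 2115 and 1761 CPM. Other lymphocytes had sums of 2046 ± 245 and 2231 ± 140 CPM that overlapped, with 7 of 12 genes above 0. Glycolysis had 12 of 13 above 0 with a median of 0.31, in other lymphocytes 11 of 13 with 0.28, and its sums overlapped (5624 ± 989 and 7100 ± 1694 CPM). Without the cells that held melanoma or fibroblast UMIs the cycling sums were 5236 ± 397 and 6146 ± 1032 CPM. Cycling cells of h5 were then at 5824 CPM, against 8685 with them. In other lymphocytes the sums went from 3299 ± 69.2 and 4289 ± 1852 to 2977 ± 164 and 3103 ± 508 CPM, all with overlap. By class, the glycolysis sums of cycling cells were near the same in CD8 cells (5309 ± 1065 and 5313 ± 1771 CPM) and in NK cells (3755 ± 186 and 3917 ± 882). Over all T cell classes they were 6637 ± 406 and 8286 ± 1377 CPM, and the groups overlapped in each case.

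Lists with a median below 0 were mostly those of regulators and effectors. Over all tested genes 44.4% were above 0. Lineage transcription factors had 3 of 14 above 0 with a median of -0.40, and sums of 3668, 4590 and 3884 against 3514, 2208 and 3277 CPM that did not overlap. Among cells with 4 or more Mki67 and Top2a UMIs these sums overlapped, at 3205, 4462 and 3505 against 3395, 2564 and 3082 CPM. In other lymphocytes the median was -0.36. Cell cycle inhibitors summed to 2236 ± 214 and 1737 ± 148 CPM in cycling cells and to 4185 ± 183 and 3219 ± 153 in other lymphocytes, without overlap in either, although those of cycling NK or CD8 cells alone overlapped. Btg1 made up a large part of the cycling sum and of its difference between the groups, at 1082, 1199 and 1007 against 857, 689 and 802 CPM. The sum therefore need not stand for the list as a whole. Checkpoint receptors had 1 of 9 above 0 (median -0.55), cytokines and chemokines 3 of 8 (-0.55), cytotoxic effectors 2 of 9 (-0.24) and costimulatory and cytokine receptors 4 of 13 (-0.23), all with overlapping sums. For the cytokine and costimulation lists the share above 0 was not far below that of all genes. Among cells with 4 or more UMIs the cytokine sum was 1.18-fold and the costimulation sum 1.04-fold that of Empty vector, against 0.852-fold and 0.895-fold over all cycling cells. The checkpoint sum was 0.994-fold and the cytotoxic sum 0.956-fold there, against 0.834-fold and 0.838-fold over all cycling cells. Memory and naive genes had 7 of 10 above 0 (0.06), interferon genes 4 of 9 and clock genes 1 of 4 (-0.18), and 0 genes of these lists were called. The clock sum was 182 and 156 CPM with overlap, and without the cells that held melanoma or fibroblast UMIs it was 189, 180 and 160 against 116, 151 and 129 CPM without overlap. Arntl, which encodes Bmal1, was at 26.1, 17.2 and 17.7 against 15.1, 35.6 and 9.19 CPM in cycling cells, with overlap.

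**Figure D5:**
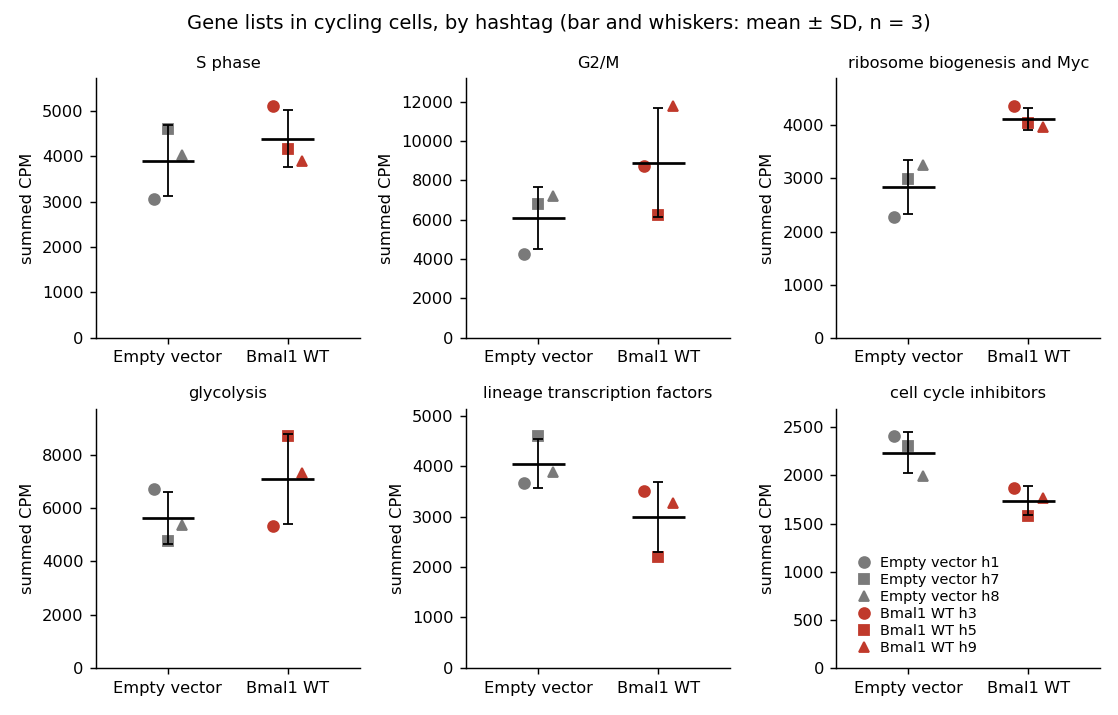
Summed CPM of 6 gene lists in cycling cells (y axes, linear from 0), 1 point a hashtag, Empty vector in grey and Bmal1 WT in red, with bars and whiskers for the mean ± SD (n = 3). The groups do not overlap for ribosome biogenesis (2273 to 3254 against 3959 to 4360 CPM), lineage transcription factors and cell cycle inhibitors, and overlap for the S phase, G2/M and glycolysis lists.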

How the data were processed

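The authors deposited raw UMI counts per gene and cell barcode, filtered to called cells, made with Cell Ranger 6.1.2 (version from the matrix header) on mm10, as the submitters' processing notes name the tool and build. Aligner settings and the use of strand are not given in the sources used here. Members and gene lists were chosen with earlier results of these data known. Barcodes with at least 200 genes and at most 20% mitochondrial UMIs were kept. Cells were given to hashtags by a mixture of 2 Gaussians per hashtag on log counts (scikit-learn 1.9.0), with minimum counts from 17 to 159, and cells positive for a single hashtag formed its replicate. UMIs were summed per hashtag over cycling and over other lymphocytes. Groups were compared with edgeR 4.0.16 (R 4.3.3; quasi-likelihood test, total UMIs as library size, at least 100 UMIs over the sums), with DESeq2 1.42.0 as an alternative, and shares with exact permutation tests over hashtags (scipy 1.17.1). Medians of cycling against other cells used 5 CPM added to both sides. Depth was 34232927 gene UMIs in Empty vector and 39561569 in Bmal1 WT. Genes named are those called, or else the 10 with the smallest p, and up to 4 a list by level or difference. Positions are from GENCODE M21 (GRCm38), in which 31011 of 31053 gene identifiers were found. The scripts were tested on simulated data. Alternatives changed the cell filters, the threshold, thinning, the hashtag calls, the gene filter, the normalization (TMM) and the classes used, and left out each hashtag. The threshold of 4 UMIs, leaving out cells with melanoma or fibroblast UMIs, and leaving h5 out of cycling against other cells were added after seeing the data.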

Additional observations from a re-analysis of the deposited data

How the results depend on the processing

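No paired analysis was possible because the groups share no hashtag. The higher share of cycling cells in Bmal1 WT and the class differences of CD8, Foxp3 and NK cells kept their direction in 17 of 17 alternatives each, and the cause of the changes below was not tested. DESeq2 called 1 gene in cycling cells and 126 in other lymphocytes, where edgeR called 0. Without a filter on genes edgeR called 2 in other lymphocytes and 88 for the difference between the contrasts of cycling and other lymphocytes. Leaving out 1 hashtag gave 0 to 1 in other lymphocytes (1 without h5) and 0 to 1 for the difference (1 without h1). The S phase median was -0.13 in NK cells alone, against 0.18, and the ribosome biogenesis median 0.25, against 0.58.

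Small classes turned. Of the class against the rest, in percentage points, CD4 cells without Foxp3 went from 2.77 to -0.864 thinned to 2000 UMIs (-0.153 to 4.38 leaving out 1 hashtag), Trdc cells from -6.46 to 1.10 at 2000, T cells with none of the class genes from -7.16 to 2.98 at 2000 and 5.40 at 4000, and cells with CD3 and NK genes from -0.544 to 1.66 and 1.45 at thresholds of 3 and 4 UMIs (-1.88 to 2.41 leaving out 1 hashtag).

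In the makeup of cycling cells (Bmal1 WT minus Empty vector, percentage points) CD8 cells went from -1.82 to 0.581, 1.38 and 1.65 at thresholds of 1, 3 and 4 UMIs, and ranged from -11.3 to 8.68 leaving out 1 hashtag. CD4 cells without Foxp3 went from -1.09 to 3.40 and 1.01 at 3 and 4 UMIs (-4.75 to 2.63), and cells with CD4 and CD8 from 0.712 (-0.664 to 2.11). NK cells went from 1.21 to -3.51 and -3.24 at 3 and 4 UMIs, -0.240 with no cell filter and -0.534 thinned to 4000 UMIs (-5.43 to 7.17). T cells with none of the class genes went from 0.598 to -1.12 without cells of other lineages, -1.79 without the deepest 5%, -0.305 at 4 UMIs and -1.07 without cells with melanoma or fibroblast UMIs (-1.62 to 2.33). Cells with CD3 and NK genes went from -3.90 to 0.648 without the deepest 5%. Depth limits the gene tests most in h9, with 326559 UMIs from 19 cells.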

Other observations

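Lymphocytes that entered no replicate were counted apart. In Empty vector 9 of 112 lymphocytes without a hashtag were cycling (8.04%, exact 95% interval 3.74 to 14.7%) and 17 of 166 with several (10.2%, 6.08 to 15.9%). In Bmal1 WT the counts were 7 of 32 without a hashtag (21.9%, 9.28 to 40.0%) and 5 of 30 with several (16.7%, 5.64 to 34.7%). Each of these 4 shares has an interval that includes the mean share of its group's hashtags, 10.0% and 17.4%.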
